A study of Notamacropus eugenii with 7 samples.

Results

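MiR-375, miR-30a and miR-22 were the 3 miRNAs of tammar wallaby milk that had their highest share of miRNA reads at day 250 of lactation and exceeded 5% there. They are 3 of the 102 miRNAs listed in at least 1 library, out of 346 miRNA names in the deposited table. The 3 were selected on their milk shares, so their profiles over the milk days are given as a description with no test. Together they took 4.17% of annotated miRNA reads in milk at day 35 and 49.4% at day 250.

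Small RNA was sequenced from 5 milk pools and 2 serum samples of lactating tammar wallabies (Macropus eugenii), with 1 library each. Milk of 10 females was pooled at day 35 and of 5 females at day 75, both in phase 2A, when the young is fixed to the teat. Pools of 4 females each were taken at days 120 and 175, in phase 2B, and at day 250, in phase 3, when the young also feeds on plants. Serum of 2 lactating mothers was taken at day 120 and of 2 at day 175, each day with 1 set of values, and whether it was pooled is not given in the sources used here. Females were anaesthetised with Zoletil or isoflurane and received oxytocin before milking, and their ages are not given in the sources used here. RNA came from skim milk, freed of fat and cells, by the mirVana kit and from serum by the miRNeasy Serum/Plasma kit, so fluid and extraction kit cannot be told apart. Days are those of the sample labels. For day 75 the study's results give day 72 and its methods day 75, and for day 120 its text gives day 118. The series text speaks of duplicates of day 175, but only 1 set of day 175 values per fluid was analysed here.

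Each value is the percent of all annotated miRNA reads of that library, rounded by the authors to 3 decimals. The depth behind the values is unknown from them, and there is no replicate of any fluid and day. A share can change because the miRNA changed or because other miRNAs did, and in these fluids the number of secreting cells and the RNA released per cell cannot be told apart.

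MicroRNAs are short RNAs that, once loaded into an Argonaute protein, pair through a seed near their 5′ end with messenger RNAs and lower their translation or stability. In milk they are carried largely in extracellular vesicles and fat globules shed by the secretory epithelium. MiR-375 is best known from pancreatic islets and the pituitary, where it restrains hormone secretion and shapes islet cell mass, and it is also abundant in other epithelia, including gut. MiR-30a belongs to the miR-30 family, whose members share a seed and are known for roles in kidney development, autophagy and epithelial differentiation. MiR-22 is a widely expressed miRNA studied in erythroid maturation, heart and metabolism.

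The sources used here hold oligonucleotides made for miR-22 and miR-30a, shown because they fix which RNA end each assay recognises. The stem-loop reverse transcription primers below are written 5′ to 3′. Lower case marks the 44 bases that 6 primers of the study share, and capitals mark the 6 bases made to pair with the 3′ end of the miRNA.

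miR-22: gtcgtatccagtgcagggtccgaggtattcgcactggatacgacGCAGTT

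miR-30a: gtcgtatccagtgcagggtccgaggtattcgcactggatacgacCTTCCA

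The reverse complement of these 6 bases gives, as DNA, the end that each primer is made to recognise, AACTGC for miR-22 and TGGAAG for miR-30a. Whether the wallaby miRNAs end in these bases was not tested. The forward primers, which carry the 5′ part of the miRNA after a short added stretch, were as follows.

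miR-22: ccaggcaagctgccagttg

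miR-30a: ggcgcgtgtaaacatcctcga

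These primers served quantitative PCR that was not analysed here. The table names neither the arm nor the sequence of each counted miRNA.

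Over days 35, 75, 120, 175 and 250, miR-375 made up 2.41%, 2.63%, 8.23%, 9.78% and 25.8% of the miRNA reads of milk. Its serum shares were 1.20% (day 120) and 1.49% (day 175). All 5 milk shares lay above both serum shares, and the milk shares followed the order of the days. MiR-375 ranked 9, 7, 4, 3 and 1 among the miRNAs of the 5 milk libraries in order of day. At day 250 it was 1.67 times as abundant as miR-191, the miRNA that led the first 3 milk libraries.

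The gain of miR-375 came mainly in a pair of steps. From day 75 to day 120 its share was 3.13-fold higher, and from day 175 to day 250 it was 2.64-fold higher. The other steps were small, 1.09-fold from day 35 to day 75 and 1.19-fold from day 120 to day 175. The last step alone made up 68.4% of the gain in percentage points between days 35 and 250, and its log2 value was 1.40 as deposited and 2.48 as a centred log ratio. The small step from day 120 to day 175 depended on the denominator. On the log2 scale it was 0.25 as deposited, -0.44 when miR-191 was dropped from the denominator and -0.63 as a centred log ratio, in which each value is set against the mean log share of 40 miRNAs. The step from day 35 to day 75 likewise had a log2 value of 0.13 as deposited and -0.14 when miR-191 was dropped.

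The share of miR-30a in milk was 1.095%, 3.46%, 3.36%, 13.7% and 15.0% over the same days. Its serum shares were 0.366% (day 120) and 0.313% (day 175). Every milk share lay above both serum shares, and the milk libraries fell into 3 levels, with day 35 lowest, days 75 and 120 alike and days 175 and 250 alike. Its rank in milk was 11, 6, 8, 2 and 3 in order of day.

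The steps of miR-30a fell at other times than those of miR-375. Its share was 3.16-fold higher at day 75 than at day 35 and 4.07-fold higher at day 175 than at day 120. Between days 75 and 120 the fold was 0.971, and between days 175 and 250 it was 1.09. The step from day 120 to day 175 made up 74.4% of its gain in percentage points. On the log2 scale this step was 2.03 as deposited, 1.34 when miR-191 was dropped from the denominator, and 1.14 as a centred log ratio. The near-level step from day 75 to day 120 had a log2 value of -0.04 as deposited and 0.31 when miR-191 was dropped from the denominator. The last step was 0.13 as deposited and 1.21 as a centred log ratio, so the plateau between days 175 and 250 also depended on the denominator.

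MiR-30a was the one entry of its family with values. The table also names miR-30b, miR-30c, miR-30d and miR-30e, and all 4 entries were empty in all 7 libraries, which does not show that their reads were absent. Members of this family differ by few bases, and whether reads of other members were counted as miR-30a was not tested.

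The share of miR-22 in milk was 0.671%, 0.794%, 1.14%, 3.18% and 8.64% over the 5 days. Its serum shares were 0.474% (day 120) and 0.749% (day 175). The milk share of day 35 lay between the serum shares and that of day 75 was near the higher one. Across days the fluids thus overlapped for miR-22, unlike for miR-375 and miR-30a. Serum was not sampled at days 35 and 75. At days 120 and 175, which have both fluids, the milk shares of miR-22 lay above both serum shares. Its rank in milk was 13, 15, 12, 11 and 5.

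Most of the gain of miR-22 came late. It was 1.18-fold higher at day 75 than at day 35 and 1.43-fold higher at day 120 than at day 75. It was then 2.80-fold higher at day 175 and again 2.72-fold higher at day 250. The last step made up 68.5% of the gain in percentage points, almost the part that it made up for miR-375. As a centred log ratio the steps were 0.53, 0.32, 0.60 and 2.52 on the log2 scale, with the last step standing further apart. The small step from day 35 to day 75 had a log2 value of 0.24 as deposited and -0.03 when miR-191 was dropped from the denominator.

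**Figure D1:**
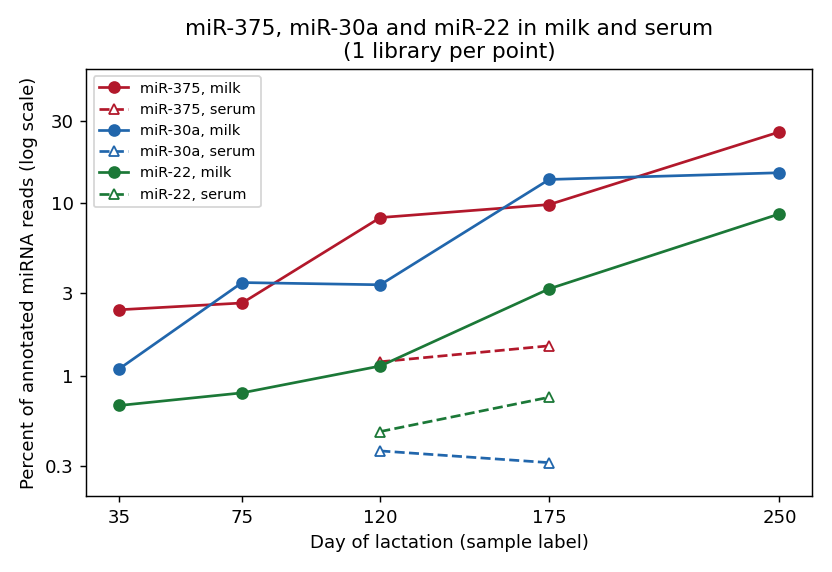
Share of annotated miRNA reads (percent, log axis) against day of lactation for miR-375, miR-30a and miR-22. Filled circles are milk and open triangles serum, 1 library each, with no error bars because no library was replicated. In milk all 3 were highest at day 250, at 25.8%, 15.0% and 8.64%, and in serum all 3 stayed under 1.5%.

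From day 35 to day 250 the milk share was 10.7-fold higher for miR-375, 13.7-fold for miR-30a and 12.9-fold for miR-22. The log2 differences were 3.42, 3.77 and 3.68. These folds are close, although the starting shares of miR-375 and miR-22 differed by a factor of 3.58. With both miR-191 and miR-184 out of the denominator the log2 differences became 2.41, 2.76 and 2.68, and with the 3 miRNAs themselves left out they became 4.34, 4.69 and 4.61. Dropping miR-191 alone shifted every log2 difference of this kind by -0.50, and the centred log ratio shifted them by 0.29. These values rested in part on the end libraries. With day 175 in place of day 250 the log2 difference was 2.02 for miR-375 and 2.24 for miR-22, and with day 75 in place of day 35 it was 2.11 for miR-30a.

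The summed share of the 3 in milk was 4.17%, 6.88%, 12.7%, 26.6% and 49.4% in order of day. This joint share was 11.8-fold higher at day 250 than at day 35. MiR-191 and miR-184, the leading pair of early milk, took 58.0%, 52.9%, 52.4%, 11.1% and 15.6% on the same days. In serum the 3 together took 2.04% at day 120 and 2.55% at day 175, where miR-10b took 69.2% and 55.4%.

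**Figure D2:**
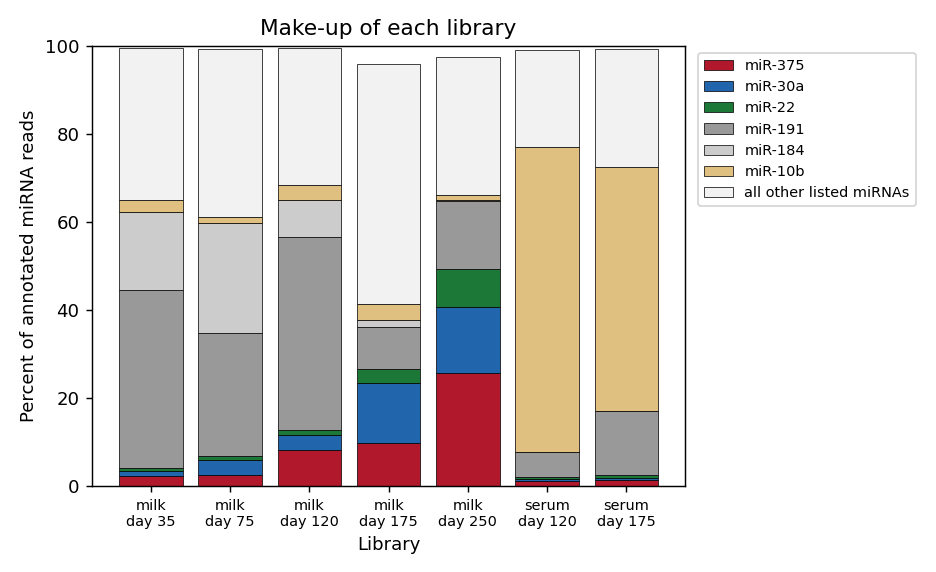
Make-up of each library as stacked percent of annotated miRNA reads, 1 bar per library. The 3 coloured parts at the foot of each bar, miR-375, miR-30a and miR-22, sum to 4.17% in milk at day 35 and 49.4% at day 250, and the gap above each bar is the share of reads outside the listed miRNAs.

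Ratios between 2 of the miRNAs within a library do not depend on the denominator. The ratio of miR-375 to miR-22 was 3.58, 3.31, 7.24, 3.08 and 2.98 in order of day. It thus lay between 2.98 and 3.58 in 4 of the milk libraries, with day 120 standing apart. The ratio of miR-375 to miR-30a was 2.20, 0.761, 2.45, 0.716 and 1.72 in order of day, so that miR-30a was the more abundant of the pair at days 75 and 175. The ratio of miR-30a to miR-22 was 1.63, 4.35, 2.95, 4.30 and 1.73, with nearly the same value at the first and last day.

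In serum the order of the 3 was different. MiR-22 exceeded miR-30a in both serum libraries, with a ratio of miR-30a to miR-22 of 0.772 at day 120 and 0.418 at day 175, whereas it was above 1 in every milk library. The ratio of miR-375 to miR-30a was 3.28 and 4.75 in serum, above its value in each milk library. Each ratio comes from a single library, and the difference between fluids in these ratios was not tested.

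**Figure D3:**
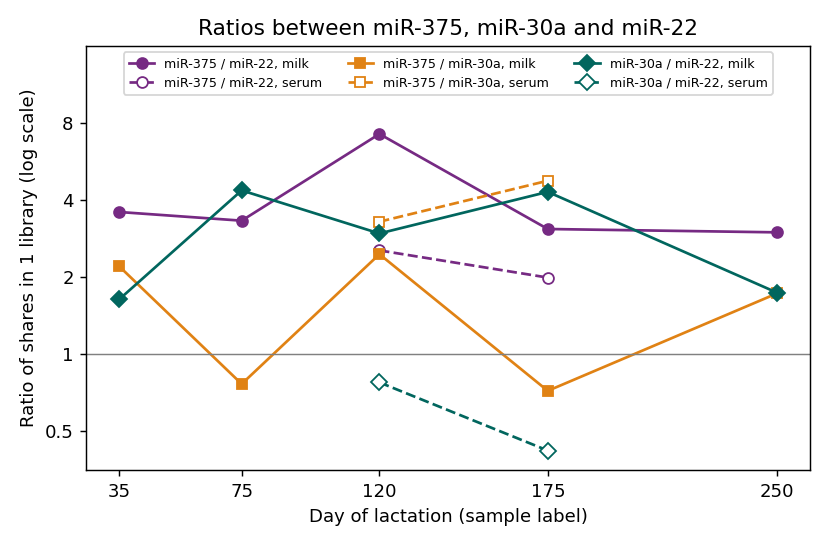
Ratio of the shares of 2 miRNAs within the same library (log axis) against day of lactation, with milk as filled and serum as open symbols and 1 library per point. The ratio of miR-30a to miR-22 lies between 1.63 and 4.35 in milk and below 1 in serum.

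At the threshold that chose them, miR-22 was the member nearest to 5%, at 8.64%. Of the other miRNAs with their highest milk share at day 250, let-7b came next with 0.591%, then miR-130a with 0.510% and let-7g with 0.215%. MiR-191, miR-148 and the entry shared by miR-181c and miR-181a also exceeded 5% at day 250, with 15.5%, 9.31% and 5.83%, but were highest at days 120, 175 and 75. MiR-141, a miRNA of the epithelial miR-200 family, was just under 5%, with 4.17% at day 250 after 4.96% at day 175.

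As a background, 64 miRNAs reached 0.005% in at least 1 milk library. Of these 35.9% were at least 4-fold higher at day 250 than at day 35 with 0.001 added to each percentage, the 3 members included. Day 250 held the highest share for 20.3% of the 64, and 6.25% were higher at every step, miR-375 and miR-22 among them. Since the members were chosen on these milk values, nothing is read from their inclusion. The median log2 difference over the 64 was 0.75, and by this difference miR-30a, miR-22 and miR-375 ranked 10, 11 and 13. Of the 23 that were at least 4-fold higher, 14 were at 0 or empty at day 35, where the fold depends on the added 0.001. Among the 29 with at least 0.1% at day 35, a limit chosen after the data were seen, 5 were at least 4-fold higher, namely the 3 members, miR-141 and let-7b.

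**Figure D4:**
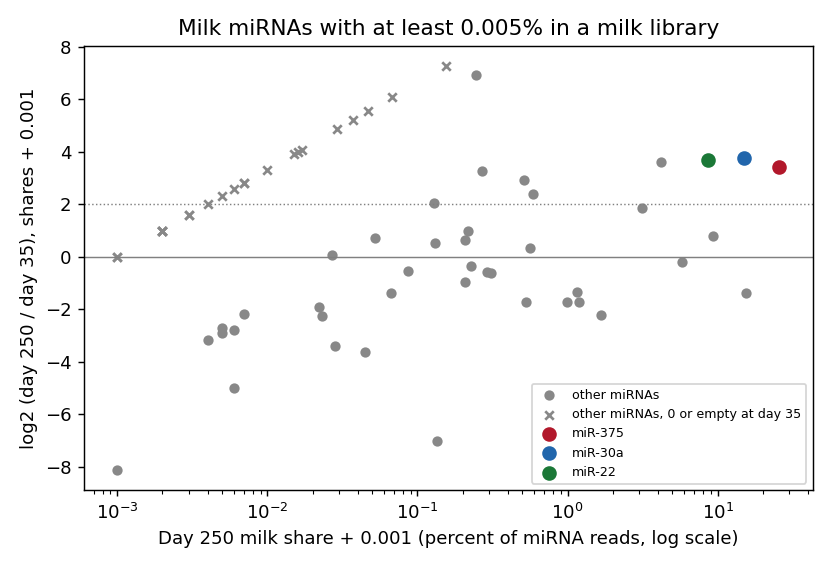
Log2 of the day 250 over the day 35 milk share against the day 250 share (log axis), both with 0.001 percentage points added, for the 64 miRNAs that reached 0.005% in any milk sample. Crosses are miRNAs at 0 or empty at day 35 and the dotted line marks 4-fold. The 3 members have log2 values of 3.42 to 3.77 at the abundant end of the axis.

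The milk profiles most like each member were found by the Pearson correlation of log2 shares over the 5 milk libraries, among 45 other miRNAs listed in all 5 and reaching 0.005% in 1. For miR-22 these were let-7b (0.99), miR-130a (0.99) and miR-375 (0.94). For miR-375 they were miR-22 (0.94), let-7b (0.93) and miR-130a (0.92). Let-7b, a member of the let-7 family of differentiation-linked miRNAs, took 0.113%, 0.143%, 0.163%, 0.260% and 0.591% in order of day. MiR-130a took 0.066%, 0.063%, 0.096%, 0.303% and 0.510%.

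MiR-30a had other neighbours, namely miR-221 (0.97), miR-141 (0.96) and miR-27b (0.95). MiR-141 took 0.344%, 1.74%, 0.684%, 4.96% and 4.17% in order of day, with its lower values at days 35 and 120, between which day 75 stood higher. MiR-27b took 0.027%, 0.153%, 0.101%, 0.330% and 0.266%. MiR-221 was listed at 0 at day 35, then took 0.006%, 0.008%, 0.066% and 0.028%, so its correlation depends on the 0.001 added to each percentage before the log. A share of 0 has no centred log ratio, so miR-221 was left out of the ranking on that scale. There miR-143 was among the 3. Between the members the correlation was 0.90 for miR-30a with miR-22 and 0.85 for miR-30a with miR-375. These are descriptions over 5 points that share one trend in the denominator.

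The comparison of milk with maternal serum asks whether milk miRNAs mirror those in blood. At day 120 the milk share was 6.84 times the serum share for miR-375, 9.17 times for miR-30a and 2.40 times for miR-22. At day 175 the ratios were 6.58, 43.7 and 4.25. As deposited, the ratio of miR-375 was nearly the same on both days, that of miR-22 was higher at day 175, and that of miR-30a differed most between the days. The comparison between days depended on the scaling. As centred log ratios over 52 miRNAs the log2 ratios of days 120 and 175 were 2.37 and 1.22 for miR-375, 2.79 and 3.95 for miR-30a, and 0.86 and 0.58 for miR-22, so that the direction turned for miR-22. Rounding alone leaves the ratio of miR-30a between 43.6 and 43.7 at day 175. The 3 together were 6.23 times as abundant in milk as in serum at day 120 and 10.4 times at day 175.

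With miR-10b and miR-191, the main parts of the serum and early milk libraries, left out of the denominators, all ratios became smaller. For miR-22 the log2 ratios of days 120 and 175 were then 0.19 and 0.56, where those as deposited were 1.26 and 2.09. For miR-30a it was 2.12 and 3.92, against 3.20 and 5.45, and for miR-375 it was 1.70 and 1.19, against 2.77 and 2.72.

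For a test, the milk libraries of days 120 and 175 were set against the serum libraries of these days in limma, over the 75 miRNAs that reached 0.001% in 2 or more of these 4 libraries. The days stand in for replicates, so the only spread behind the p-values is that between 2 days. Limma draws the spread of each miRNA toward that of all 75. The standard error and p-value of a member thus also rest on the other miRNAs. The milk values of these days also took part in choosing the members, and the effect of this on the comparison was not tested. The limma values of the members are therefore given as a description and are not independent evidence of a difference between fluids. Higher in milk with an adjusted p under 0.05 were 14.7% of the 75, and of the members miR-30a alone was among them, from which nothing is read. Its log2 difference was 4.32 (standard error 0.94, limma adjusted p = 0.023). For miR-375 the difference was 2.75 (standard error 0.74) and did not pass, with a limma adjusted p of 0.053. For miR-22 it was 1.67 (standard error 0.87) and did not pass either, with a limma adjusted p of 0.26. Over all 75 the median log2 difference was 0.076. Whether the members differed from each other in this respect was not tested.

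The call for miR-30a did not hold in every setting. It was lost with the day as a replicate block (limma adjusted p = 0.17), a setting used because the serum is described as matched to the milk. With the block, calls over all tested miRNAs went from 11 to 0 higher in milk and from 3 to 0 higher in serum. This loss was therefore not particular to miR-30a. Its call was also lost with any 1 of the 4 libraries left out, where 1 fluid rests on 1 library. The log2 difference of miR-30a was then between 3.31 and 5.33. MiR-375 passed with 0.01 added to each percentage (limma adjusted p = 0.0082), where calls higher in milk were 14. With the block it did not pass (limma adjusted p = 0.093).

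**Figure D5:**
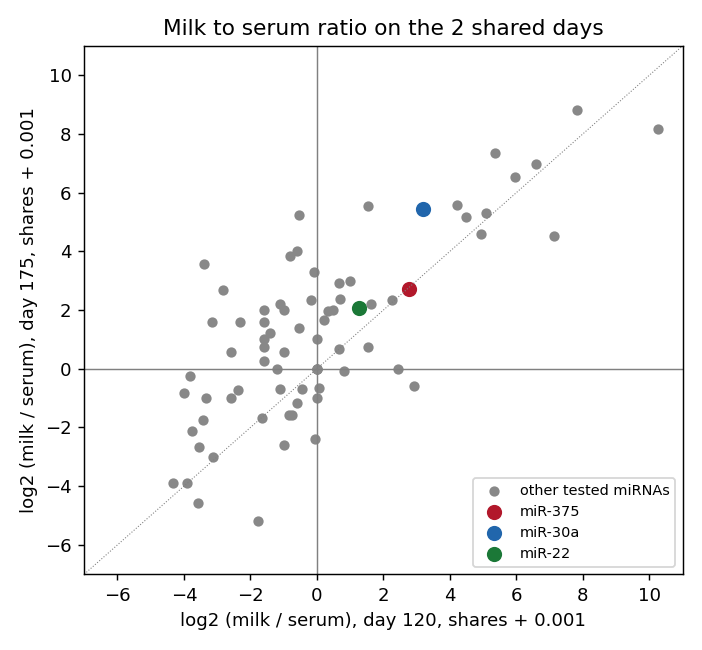
Log2 of the milk over the serum share, with 0.001 percentage points added, at day 120 (horizontal) and day 175 (vertical) for the 75 tested miRNAs, 1 library per fluid and day. As deposited, miR-375 lies near the dotted line of equal ratios (2.77 and 2.72; 2.37 and 1.22 as centred log ratios), and miR-30a lies above it with 3.20 and 5.45.

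Over all 7 libraries, 69 miRNAs reached 0.005% somewhere, and for 20.3% of them all 5 milk shares lay above both serum shares. MiR-375 and miR-30a were among these. For miR-22, 4 of the 5 milk shares lay above both serum shares. The highest milk share was 17.3 times the highest serum share for miR-375, 40.9 times for miR-30a and 11.5 times for miR-22.

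The serum values took no part in choosing the members. From day 120 to day 175 the serum share was 1.24-fold higher for miR-375 and 1.58-fold higher for miR-22, and for miR-30a the fold was 0.855. Among the 57 miRNAs that reached 0.005% in serum, 59.6% differed at least 1.5-fold between these days in either direction. As deposited, miR-22 was the only member that did. With miR-10b left out of the denominator the log2 change of miR-375 was -0.23 in place of 0.31. That of miR-22 was 0.13 in place of 0.66, and that of miR-30a was -0.76 in place of -0.23. Under this denominator miR-30a, and not miR-22, differed at least 1.5-fold. The share of all serum miRNAs past 1.5-fold was not computed under it, so nothing is read from this. As the sign for miR-375 differed between the denominators, its direction in serum is not settled. In serum miR-375 ranked 9 and 7, miR-22 ranked 11 and 9, and miR-30a ranked 15 and 16.

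Markers of cell types were summed to show what moved beside these miRNAs. The 7 epithelial miRNAs (miR-200a, miR-200b, miR-200c, miR-141, miR-429, miR-203 and miR-205a) together took 0.773%, 2.15%, 1.34%, 6.65% and 4.49% of milk miRNA reads over the 5 days, while the serum sums were 0.054% and 0.082%. Of these 7, 6 were listed and the entry of miR-200a was empty in all libraries, so the sums leave it out. Reads outside the listed miRNAs made up 4.18% of the library at day 175 and 2.42% at day 250, so the order of these days is not settled for the whole list. The sum of the listed 6 was higher in every milk library than in serum. It was carried mainly by miR-141 and miR-429, which took 4.96% and 1.38% at day 175 and 4.17% and 0.205% at day 250. MiR-203 went the other way in 4 of the 5 milk libraries, with 0.005% to 0.031% there and 0.145% at day 175, against 0.045% and 0.055% in serum. MiR-205a did not separate the fluids. In milk it was empty at days 35 and 120 and took 0.005%, 0.001% and 0.002% at days 75, 175 and 250. In serum it was empty at day 120 and took 0.003% at day 175. The part of the epithelial miRNAs in the profiles of the members was not tested.

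The red blood cell miRNAs miR-451 and miR-144 together took at most 0.047% in milk, at day 175, and 0.009% at day 250, against 0.042% and 0.055% in serum. The day 175 milk thus held them at the level of serum. The white blood cell miRNAs miR-223, miR-142 and miR-150 together took at most 0.008% in milk and 0.002% at day 250, against 0.041% and 0.120% in serum. MiR-486 and miR-155, of the same lists, were empty in all libraries. Their part in the values of the members was not tested. MiR-122, the liver miRNA, took between 0.001% and 0.040% in milk, highest at day 35, and 0.096% and 0.009% in serum. MiR-126 of endothelium took at most 0.007% in milk, against 0.034% and 0.050% in serum. The muscle miRNAs miR-1 and miR-133a together took at most 0.004% in milk, at day 120, against 0.017% and 0.003% in serum, and both entries were empty in the day 250 milk. MiR-7, which like miR-375 is known from endocrine cells, took at most 0.002% in milk and was listed at 0 at day 250.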

How the data were processed

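Small RNA of skim milk and serum was sequenced on an Illumina HiSeq. The authors removed adaptors and low quality reads, used miRanalyzer to count known miRNAs, and deposited each count as a percent of the annotated miRNA reads of its library. A value of 0 was read as under 0.0005%, and empty entries were taken as 0 in sums, folds and tests. Listed shares summed to between 95.8% and 99.6% of a library.

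Folds, ranks, steps and ratios were computed from the percentages without replicates. The test between fluids used limma on log2 of percent plus 0.001 with Benjamini-Hochberg adjustment, and was tested on simulated data. The study calls the serum matched to the milk, so an alternative fit held the day as a replicate block. Over the tested miRNAs, milk and serum changes between days 120 and 175 correlated at -0.12. Without replicates, a shift of more than 1.5-fold between settings counted as a change of value. Alternatives were other denominators, pseudocounts, filters and correlations, and each library left out.

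Named are the 3 members, the 3 miRNAs most like each over milk, those next to the threshold, the leading miRNAs, and marker lists. The members and lists were chosen with earlier results of these data known. Mature miRNA sequences and their genome positions were not used here. The software was R 4.3.3 (limma 3.58.1) and Python 3.11.15 (matplotlib 3.10.9, scipy 1.17.1, pandas 2.3.3, numpy 2.4.6).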

Additional observations from a re-analysis of the deposited data

Results flagged for a closer look

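Between days 120 and 175 the share of miR-30a differed in opposite directions in the 2 fluids. Its log2 change was 2.03 in milk and -0.23 in serum. The milk change was 1.34 without miR-191 in the denominator and 1.14 as a centred log ratio, and the serum change was -0.76 without miR-10b. Each value compares 1 library with 1 library, and the difference between the fluids was not tested.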

How the results depend on the processing

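The log2 difference between milk days 250 and 35 (3.42 for miR-375, 3.77 for miR-30a, 3.68 for miR-22) became 2.41, 2.76 and 2.68 without miR-191 and miR-184 in the denominator, and 4.34, 4.69 and 4.61 without the members. A change of end point or baseline was added after the data were seen. With day 175 as the end point it was 2.02 for miR-375 and 2.24 for miR-22, and with day 75 as the baseline 2.11 for miR-30a. As deposited, miR-375 and miR-22 were higher at every step, within the 6.25% of the 64 milk miRNAs that were. Which members were so depended on the denominator. It was miR-30a alone without miR-191, and miR-22 alone without miR-191 and miR-184 or on the centred log ratio. Without the members in the denominator it was all 3. The share over all milk miRNAs was not computed for these settings, so nothing is read from them about the members.

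Without miR-10b and miR-191 in the denominators the log2 milk to serum ratios at days 120 and 175 were 1.70 and 1.19 for miR-375, 2.12 and 3.92 for miR-30a, and 0.19 and 0.56 for miR-22. On the centred log ratio those of day 120 were 2.37, 2.79 and 0.86 and those of day 175 were 1.22, 3.95 and 0.58. Without miR-10b the serum change of miR-375 turned to -0.23, that of miR-30a became -0.76 and that of miR-22 became 0.13.

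In limma, miR-375 passed with 0.01 as pseudocount (2.74), without a filter (2.75) and with a filter at 0.005% (2.75). Calls higher in milk over all tested miRNAs were 14, 9 and 12 in these settings. Its adjusted p ranged from 0.0082 to 0.22 over all alternatives. MiR-30a no longer passed with the replicate block (4.32), without a filter (4.32) or without miR-10b and miR-191 (3.02), nor with any library left out (3.31 to 5.33). MiR-22 passed in no alternative, with adjusted p from 0.14 to 0.76. In the main fit, calls higher in milk were 11 and higher in serum 3. With the replicate block limma called 0 and 0, with 14 and 6 at an unadjusted p under 0.05. With a library left out it called 0 and 0, with 11 to 20 and 4 to 10 at an unadjusted p under 0.05, and 1 fluid then rests on 1 library assumed to vary like the other. Calls higher in serum were 5 with the filter at 0.005% and 7 without miR-10b and miR-191. Of the 3 miRNAs most like each member, 2 stayed by Spearman correlation for each (10 miRNAs tied for miR-30a). On the centred log ratio 3 stayed for miR-375, 2 for miR-30a and 3 for miR-22. MiR-221, at 0 at day 35, could not be ranked on that scale. The causes were not tested. The values hold no counts, and the read totals given by the study were not used here, so depth was not weighed.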

Other observations

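MiR-148, another abundant miRNA of milk and a regulator of DNA methyltransferase in other mammals, served as a second reference within each library. The ratio of miR-375 to miR-148 in milk was 0.448, 0.249, 0.989, 0.669 and 2.77 over days 35, 75, 120, 175 and 250. For miR-30a the ratio was 0.204, 0.327, 0.403, 0.935 and 1.61, higher at every step. For miR-22 it was 0.125, 0.0752, 0.137, 0.218 and 0.928. In milk miR-375 and miR-30a exceeded miR-148 at day 250 alone, and miR-22 on no day. In serum all 3 exceeded miR-148 on both days, with ratios of 6.01 and 16.9 for miR-375, 1.83 and 3.56 for miR-30a, and 2.37 and 8.51 for miR-22. MiR-148 itself took only 0.2% (day 120) and 0.088% (day 175) of serum miRNA reads, so the serum ratios rest on a small reference. These ratios were chosen after the data were seen and come from single libraries.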
